A study of Saccharomyces cerevisiae with 8 samples.

Results

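The actin cytoskeleton and cell polarity genes of budding yeast, Saccharomyces cerevisiae, are described here as a module of 46 genes, named by symbol and covering formins, the Cdc42 GTPase and its regulators, actin-binding proteins, the Arp2/3 complex and the endocytic actin patch. All 46 were found in the platform annotation, through 52 probe sets that name 1 gene each, out of 5656 genes and 9275 probe sets in all. A further probe set that names CRN1 together with another gene was not used. The arrays labelled V81G came from 4 biological replicates, given in the series design as isogenic haploid strains derived from W303a, in which HYP2 and ANB1, the native genes of translation factor eIF5A, are described as disrupted and a plasmid carries human EIF5A1 with the point mutation V81G. The arrays labelled WT came from 4 such replicates with wild-type human EIF5A1 on the plasmid and the same 2 disruptions. Both sets grew at 25 °C, a temperature that permits growth of the temperature-sensitive mutant, to early log phase, and RNA of each culture was hybridised to 1 Affymetrix yeast array. The sources used here do not name the promoter of the plasmid gene.

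A yeast cell grows by adding membrane and wall at 1 chosen site, the bud. The small GTPase Cdc42 marks that site, an exchange factor loads it with GTP and GTPase-activating proteins switch it off. Active Cdc42 engages formins, which build the actin cables along which myosin carries vesicles, while the Arp2/3 complex builds the branched actin of cortical patches, where endocytosis occurs. The factor eIF5A helps ribosomes through hard sequences such as runs of prolines, which formins and some patch proteins carry, and eIF5A mutants of yeast are known for defects of growth polarity. RNA was measured here and protein was not.

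The labels were checked first. HYP2, described as disrupted in all strains, had a log2 intensity of 12.02 ± 0.23 in the arrays labelled V81G and 15.42 ± 0.01 in those labelled WT (SD, n = 4 each), the second next to the ceiling of the table, 15.43. ANB1, also described as disrupted, was at 14.18 in the arrays labelled V81G and 14.04 in those labelled WT. Its difference was 0.13 ± 0.14 (SE, limma adjusted p = 0.59). These values of both genes go against the description. Groups are therefore called by their labels, and every direction below is between arrays of those labels. Of 4 genes specific to mating type alpha 3 lay above the median probe set, 10.17, in both groups, among them SAG1 at 13.17 ± 0.11 in the arrays labelled V81G and 11.40 ± 0.16 in those labelled WT. The exception was MF(ALPHA)2, at 9.16 ± 0.77 in the arrays labelled V81G and 8.80 ± 0.31 in those labelled WT. Of 6 genes specific to mating type a, the pheromone genes MFA1 and MFA2 lay above that median in both groups, and STE2, STE6, BAR1 and AGA2 lay below it. The mating type is therefore not read from the strain name or from these genes. Per the run sheets, hybridization took place on 2 days, with replicates 1 and 2 of either label on day 1 and the rest on day 2, so differences are also given per day. On day 1 the groups also ran on different fluidics stations, so that station and group cannot be told apart on that day. Median intensities were alike, 1098 to 1189 over the 8 arrays.

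Most of the module was lower in the arrays labelled V81G. Of the 46 genes 39 had a negative difference, and the module's median was -0.37 on the log2 scale, against -0.08 for all 5656 genes, of which 58.8% were negative. At an adjusted p under 0.05 in limma 9 genes fell, while 12.3% of all genes fell, and 2 rose, while 9.21% of all genes rose, so that 11 of 46 passed in either direction, against 21.5% of all genes. The fallen genes were ARC15, ARC18, ARC19, ARC40 and ARP2 of the Arp2/3 complex, the patch gene ABP1, the capping protein gene CAP2, the cofilin gene COF1 and CDC42 itself. RGA1 and RGA2, genes of GTPase-activating proteins of Cdc42, rose. In 17 genes every array labelled V81G lay below every array labelled WT, as in 16.7% of all genes, and in 1 gene, RGA2, every one lay above, as in 11.5%. In RNA of whole cultures, a change in the share of cells that express a gene and a change per cell cannot be told apart. No member lies on chromosome VIII, whose genes stand above the others in this comparison. Among genes outside that chromosome 12.8% fell and 7.67% rose. At an unadjusted p under 0.05 limma gave 18 members lower and 2 higher, while 21.6% of all genes were lower and 14.4% higher. With the hybridization day as a block 13 members fell, while 18.3% of all genes fell, and 2 rose, while 12.5% rose, and the added calls were BUD6, BOI1, ARC35 and MYO2. Without replicate 4 of the arrays labelled WT only 3 members fell, and without their replicate 1 only 4 fell. The share of all genes that fell in those fits is not given here.

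**Figure D1:**
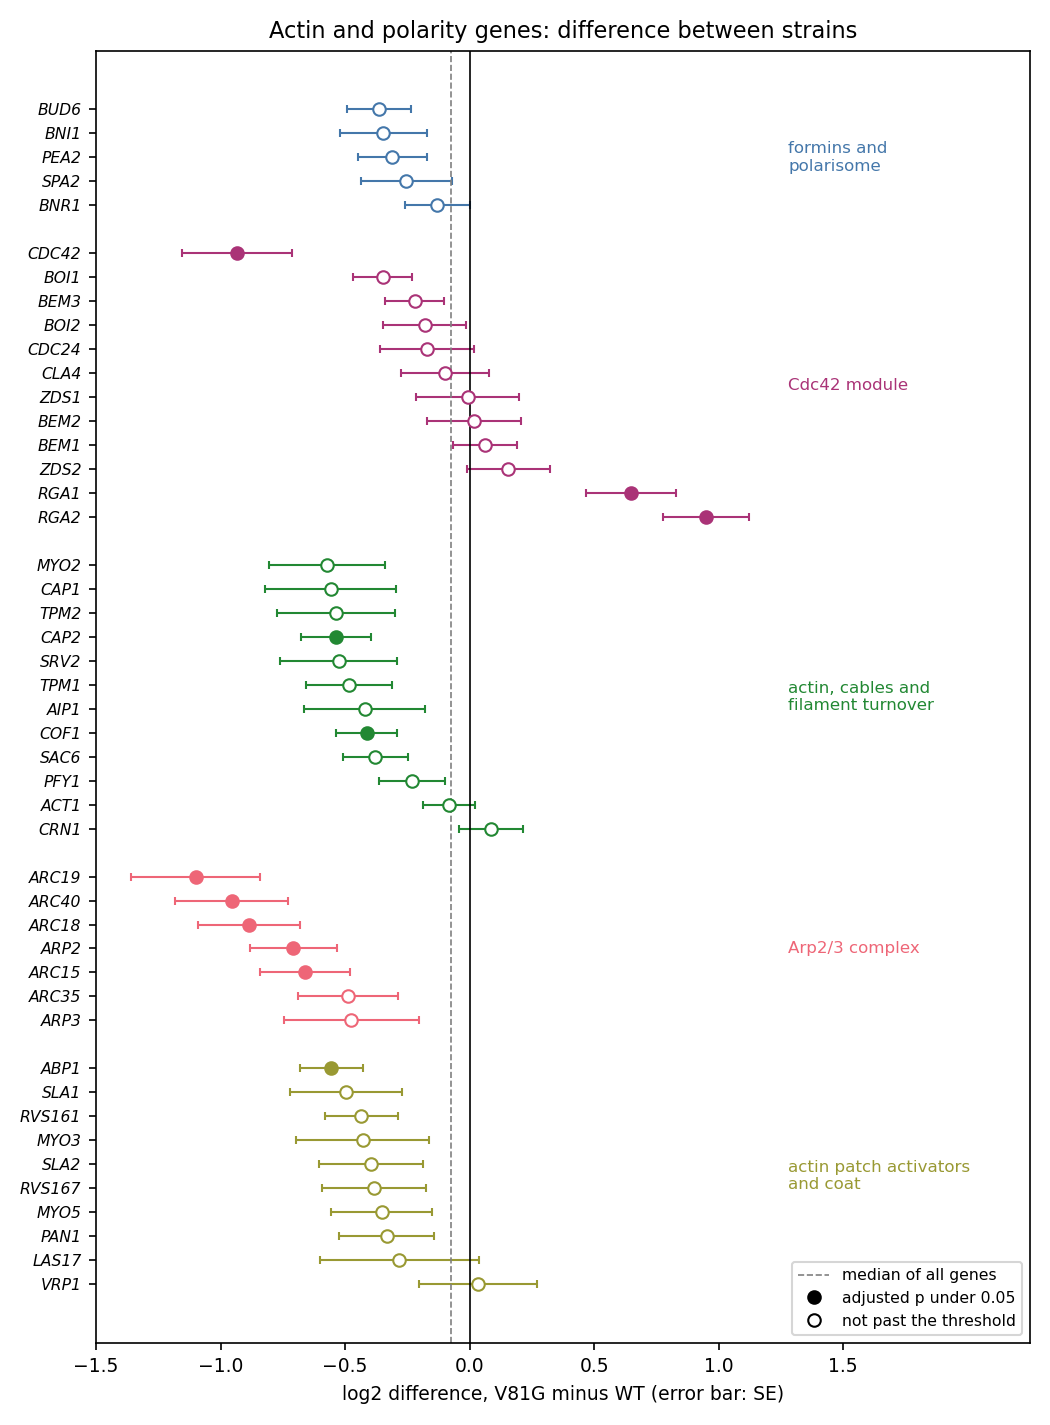
Log2 difference of each of the 46 genes, V81G minus WT (horizontal axis), by role (rows), with the standard error as bars. Filled points passed an adjusted p under 0.05, and the dashed line marks the median of all genes at -0.08. The 7 Arp2/3 genes lie between -1.10 and -0.48, and RGA2 and RGA1 lie farthest to the right.

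The Arp2/3 complex, which nucleates a new actin filament on the side of an existing one, held the 2 largest falls of the module, those of ARC19 and ARC40. Of its 7 subunit genes 5 fell and none rose, while 12.3% of all genes fell and 9.21% rose. All 7 differences were negative, and their median was -0.71. At an unadjusted p under 0.05 limma gave 6 lower and 0 higher, while 21.6% of all genes were lower and 14.4% higher. ARC19 (YKL013C, chromosome XI), a small scaffold subunit, had log2 intensities of 10.37, 10.72, 9.62 and 9.79 in the arrays labelled V81G, against 11.33, 11.41, 10.75 and 11.42 in those labelled WT. The groups did not overlap, although the highest V81G array and the lowest WT array were close. ARC19 differed by -1.10 ± 0.26 (SE), a 2.14-fold fall (adjusted p = 0.0163), a call lost without replicate 1 (adjusted p = 0.0532) or replicate 4 (adjusted p = 0.0526) of the arrays labelled WT.

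ARC40 (YBR234C, chromosome II), the propeller-shaped subunit, had 11.15, 11.12, 10.28 and 10.29 in the arrays labelled V81G, against 11.63, 11.85, 11.48 and 11.71 in those labelled WT. Every V81G array was lower than every WT array, and replicates 3 and 4 were the lowest. The difference was -0.96 ± 0.23, 1.94-fold (adjusted p = 0.0173). ARC18 (YLR370C, chromosome XII) had 10.23, 10.50, 9.70 and 9.69 in the arrays labelled V81G, against 10.80, 10.85, 10.80 and 11.21 in those labelled WT. It showed the same split of the V81G arrays into a higher and a lower pair. The difference was -0.89 ± 0.20, 1.85-fold (adjusted p = 0.0151).

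ARP2 (YDL029W, chromosome IV), 1 of the 2 actin-related proteins that start the new filament, had 11.29, 10.91, 10.88 and 10.55 in the arrays labelled V81G, against 11.33, 11.78, 11.72 and 11.64 in those labelled WT. The groups touched without overlap, since V81G 1 lay just below WT 1. ARP2 fell by 0.71 ± 0.18 (adjusted p = 0.0208), and the call was lost without V81G 4 (adjusted p = 0.0525), WT 3 (adjusted p = 0.0573) or WT 4 (adjusted p = 0.0526). ARC15 (YIL062C, chromosome IX) had 12.29, 12.50, 11.68 and 11.96 in the arrays labelled V81G, against 12.84, 12.66, 12.69 and 12.88 in those labelled WT. Here too no value of 1 group reached the other. ARC15 fell by 0.66 ± 0.18 (adjusted p = 0.0310), and it passed in 3 of the 8 fits that each leave out 1 array.

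The remaining subunit genes did not pass. ARC35, which contacts the existing filament, had 10.54, 10.61, 10.07 and 10.07 in the arrays labelled V81G, against 11.25, 10.80, 10.71 and 10.48 in those labelled WT. WT 4 lay among the V81G arrays, and the difference of -0.49 ± 0.20 (adjusted p = 0.133) passed once the replicate number was blocked (adjusted p = 0.0428). ARP3, the partner of ARP2, had 12.51, 12.68, 11.54 and 11.55 in the arrays labelled V81G, against 12.77, 12.46, 12.34 and 12.62 in those labelled WT. The day 1 arrays of both labels overlapped, and V81G 3 and 4 lay well below all others. Its difference of -0.48 ± 0.27 had an adjusted p of 0.286, and a 95% interval of -1.08 to 0.13.

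**Figure D2:**
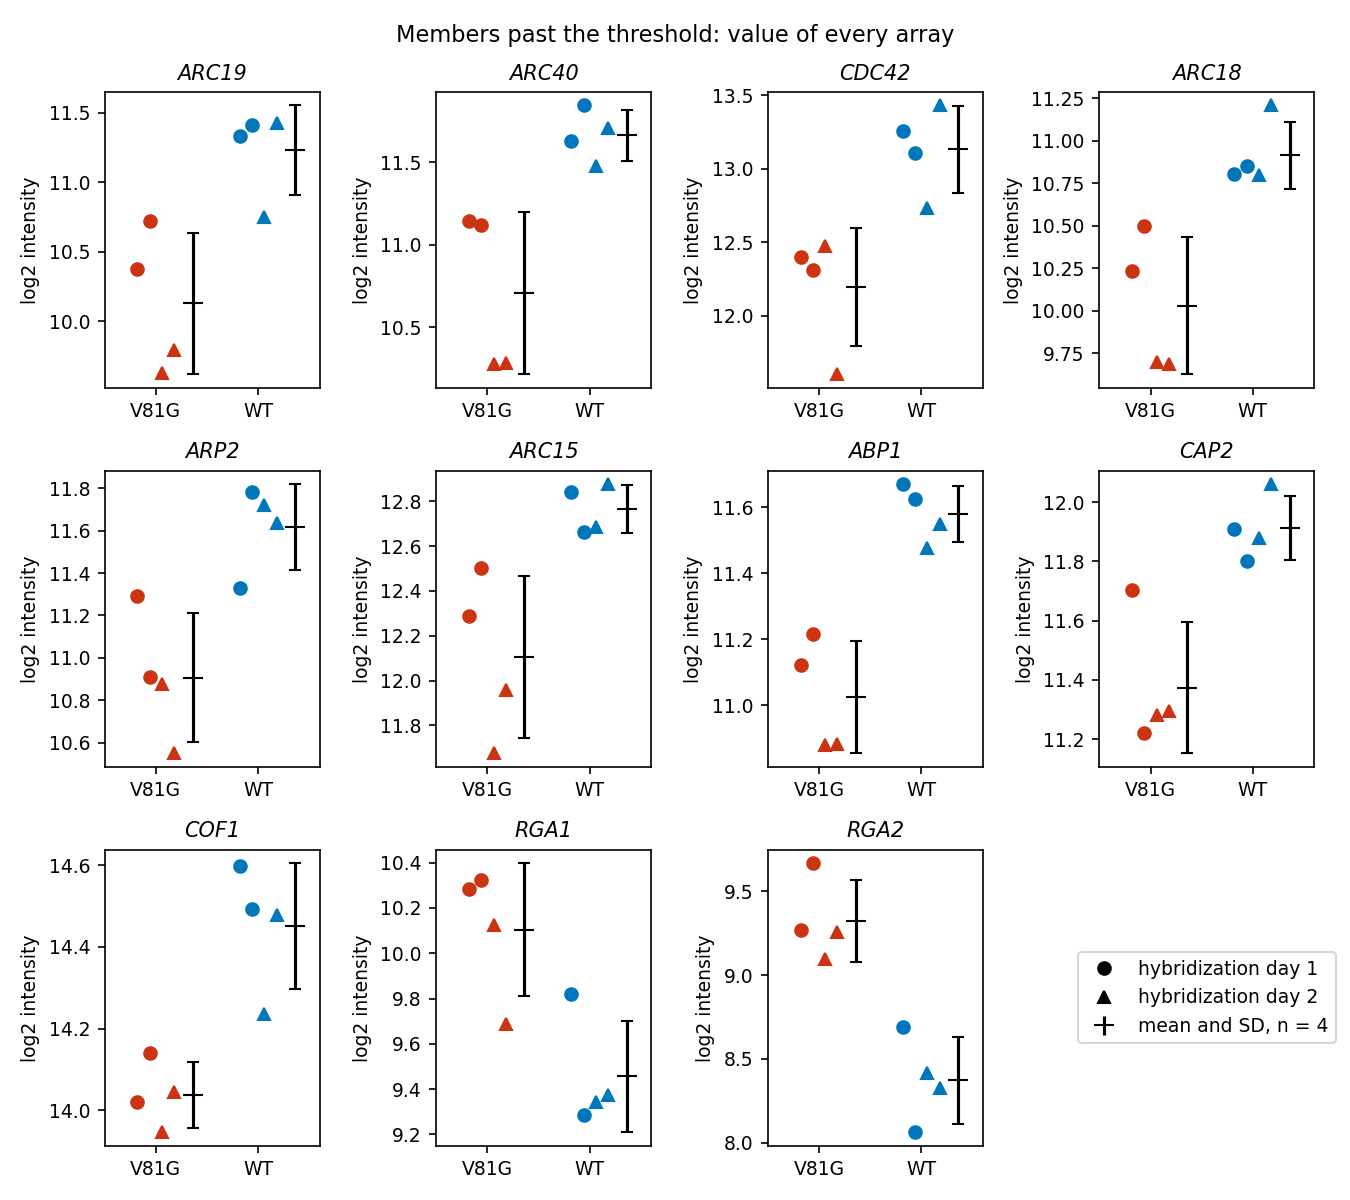
Log2 intensity (vertical axes, a scale of its own for each gene) in each array labelled V81G (red, left) and WT (blue, right) for the 11 genes that passed, with the mean and SD over 4 arrays in black. Circles are hybridization day 1 and triangles day 2. In ARC40 and ARC18 the V81G triangles lie below the V81G circles, and both lie below all WT points.

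Of the 10 genes of activators and coat proteins of the patch 1 fell and none rose, a share of falls near that of all genes, and at an unadjusted p under 0.05 limma gave 2 lower and 0 higher, also near the share of all genes. Their median was -0.39, and 9 differences were negative. The fallen gene was ABP1 (YCR088W, chromosome III), an actin-binding activator of Arp2/3, with 11.12, 11.22, 10.88 and 10.88 in the arrays labelled V81G, against 11.67, 11.63, 11.48 and 11.55 in those labelled WT. The groups were well apart, and the spread within each was small. ABP1 fell by 0.56 ± 0.13, 1.47-fold (adjusted p = 0.0146), and passed in 8 of the 8 fits that leave out an array.

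SLA1, a coat adaptor that binds the Arp2/3 activator Las17, had 11.18, 11.31, 10.30 and 10.47 in the arrays labelled V81G, against 11.32, 11.30, 11.33 and 11.29 in those labelled WT. The 4 WT arrays were nearly equal, and of the V81G arrays replicates 3 and 4 were low while replicates 1 and 2 were not. The difference was -0.50 ± 0.22 (adjusted p = 0.172). LAS17, the yeast WASP and main activator of Arp2/3, differed by -0.28 ± 0.32 (adjusted p = 0.625), the widest standard error of the module. VRP1, the verprolin that binds Las17, was at 12.65 ± 0.38 in the arrays labelled V81G and 12.61 ± 0.39 in those labelled WT, a difference of 0.03 ± 0.24 that turned below 0 under other settings. The type I myosin genes MYO3 and MYO5, the scaffold gene PAN1, the membrane adaptor gene SLA2 and the membrane-curving amphiphysin genes RVS161 and RVS167 differed by -0.43 to -0.33. RVS161 came nearest to the threshold, at -0.43 ± 0.15 (adjusted p = 0.0709).

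In the Cdc42 module the gene of the GTPase itself fell, and RGA1 and RGA2, genes of proteins that switch it off, rose. Of 12 genes 1 fell, while 12.3% of all genes fell, and 2 rose, while 9.21% of all genes rose. The other 9 did not pass, and the median was -0.05. CDC42 (YLR229C, chromosome XII) had 12.40, 12.31, 12.47 and 11.60 in the arrays labelled V81G, against 13.26, 13.11, 12.73 and 13.43 in those labelled WT. No V81G array reached the lowest WT array, and V81G 4 was the lowest of all. CDC42 fell by 0.94 ± 0.22, 1.91-fold (adjusted p = 0.0171), a call lost without WT 1 (adjusted p = 0.0559) or WT 4 (adjusted p = 0.0535).

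RGA2 (YDR379W, chromosome IV), a GTPase-activating protein gene, had 9.27, 9.67, 9.09 and 9.26 in the arrays labelled V81G, against 8.69, 8.06, 8.42 and 8.32 in those labelled WT. All V81G arrays were above all WT arrays. RGA2 rose by 0.95 ± 0.17, 1.93-fold (adjusted p = 0.0049), and passed in 8 of the 8 fits that leave out an array. Its mean in the arrays labelled WT, 8.37, lay under the 25th percentile of all probe sets, 9.03, where background can shrink a difference. RGA1 (YOR127W, chromosome XV), its paralog, had 10.29, 10.32, 10.12 and 9.69 in the arrays labelled V81G, against 9.82, 9.29, 9.34 and 9.38 in those labelled WT. The groups overlapped, because WT 1 lay above V81G 4. RGA1 rose by 0.65 ± 0.18, 1.57-fold (adjusted p = 0.0349). The call held in 2 of the 8 fits that leave out an array, those without V81G 4 or WT 1.

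The other GTPase-activating protein genes, BEM3 and BEM2, differed by -0.22 ± 0.12 and 0.02 ± 0.19 and did not pass. CDC24, the exchange factor that activates Cdc42, was at 11.04 ± 0.24 in the arrays labelled V81G and 11.21 ± 0.32 in those labelled WT, a difference of -0.17 ± 0.19 (adjusted p = 0.613). BEM1, the scaffold that joins Cdc24 to Cdc42, was dim in both groups, at 8.94 ± 0.09 in the arrays labelled V81G and 8.88 ± 0.18 in those labelled WT. The effector kinase gene CLA4 and the Bem1-binding genes BOI1 and BOI2 differed by -0.10, -0.35 and -0.18, with adjusted p-values of 0.775, 0.0752 and 0.541. BOI1 passed once the day was blocked (adjusted p = 0.0473). ZDS1 and ZDS2, polarity regulators of which ZDS1 in extra dose is known to relieve growth and polarity defects of an eIF5A mutant, differed by -0.01 ± 0.21 and 0.15 ± 0.17. Both ZDS differences changed sign between the days, with 0.15 on day 1 and -0.17 on day 2 for ZDS1, and -0.24 and 0.55 for ZDS2.

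No gene of the formins and polarisome passed in the fit by group alone, though all 5 differences were negative, with a median of -0.31. At an unadjusted p under 0.05 limma gave 2 lower and 0 higher, while 21.6% of all genes were lower and 14.4% higher. BNI1 (YNL271C, chromosome XIV), the formin that assembles bud cables, had 11.64, 11.49, 11.29 and 11.15 in the arrays labelled V81G, against 11.87, 11.84, 11.31 and 11.94 in those labelled WT. WT 3 lay as low as the V81G arrays, and the other WT arrays lay above them. The difference was -0.35 ± 0.17 (adjusted p = 0.221), with a 95% interval of -0.74 to 0.04. BNR1, the formin of the bud neck, was dim, at 7.27 ± 0.07 in the arrays labelled V81G and 7.40 ± 0.19 in those labelled WT, so that a change could be hidden by background. BUD6, which stimulates Bni1, and PEA2, of the polarisome, had groups that did not overlap, with differences of -0.36 ± 0.13 (adjusted p = 0.0822) and -0.31 ± 0.14 (adjusted p = 0.164). BUD6 passed once the day was blocked (adjusted p = 0.0334) and after quantile normalization (adjusted p = 0.0405). SPA2, the polarisome scaffold, was read by 7 probe sets, of which the brightest differed by -0.25 ± 0.18 and the others by -0.55 to -0.08, none of them past the threshold. Once the replicate number was blocked the brightest still did not pass, and 3 dimmer SPA2 probe sets did (adjusted p = 0.0339, 0.0394 and 0.0487).

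ACT1 (YFL039C, chromosome VI), the single actin gene, had 15.32, 15.35, 15.24 and 15.37 in the arrays labelled V81G, against 15.42, 15.37, 15.43 and 15.40 in those labelled WT. The V81G arrays lay at or slightly below the WT arrays, but every value lay close to the ceiling of 15.43, where differences are compressed. The difference was -0.08 ± 0.11 (adjusted p = 0.671). Among the 12 genes of actin, cables and filament turnover 2 fell and none rose, while 12.3% of all genes fell and 9.21% rose. Of their differences 11 were negative, with a median of -0.45. At an unadjusted p under 0.05 limma gave 6 lower and 0 higher, while 21.6% of all genes were lower and 14.4% higher.

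CAP2 (YIL034C, chromosome IX), the beta subunit of the protein that caps filament ends, had 11.70, 11.22, 11.28 and 11.29 in the arrays labelled V81G, against 11.91, 11.80, 11.88 and 12.06 in those labelled WT. V81G 1 came close to the WT arrays and the rest were clearly lower. CAP2 fell by 0.54 ± 0.14 (adjusted p = 0.0265), and passed in 2 of the 8 fits that leave out an array. CAP1, the alpha subunit, differed by a like amount, -0.56 ± 0.26, with more spread (adjusted p = 0.192). COF1 (YLL050C, chromosome XII), cofilin, which severs old filaments, had 14.02, 14.14, 13.95 and 14.04 in the arrays labelled V81G, against 14.60, 14.49, 14.24 and 14.48 in those labelled WT. Its groups did not overlap. COF1 fell by 0.41 ± 0.12 (adjusted p = 0.0447), a call that was lost after quantile normalization (adjusted p = 0.318), after centring on genes outside chromosome VIII (adjusted p = 0.0726) and in 7 of the 8 fits that leave out an array.

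The tropomyosin genes TPM1 and TPM2, whose products coat cables, differed by -0.48 ± 0.17 and -0.54 ± 0.24, with adjusted p-values of 0.0871 and 0.163. In both genes all V81G arrays lay below all WT arrays. MYO2, the motor that carries vesicles along cables, had 11.58, 11.12, 11.88 and 12.29 in the arrays labelled V81G, against 12.20, 12.17, 12.19 and 12.60 in those labelled WT. V81G 4 lay among the WT arrays, and the difference of -0.57 ± 0.23 (adjusted p = 0.130) passed once the replicate number was blocked (adjusted p = 0.0430). Genes of filament turnover, SRV2, AIP1 and the profilin gene PFY1, and the bundling fimbrin gene SAC6 differed by -0.53 to -0.23 without passing. The coronin gene CRN1 was the exception in sign, at 0.08 ± 0.13.

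**Figure D3:**
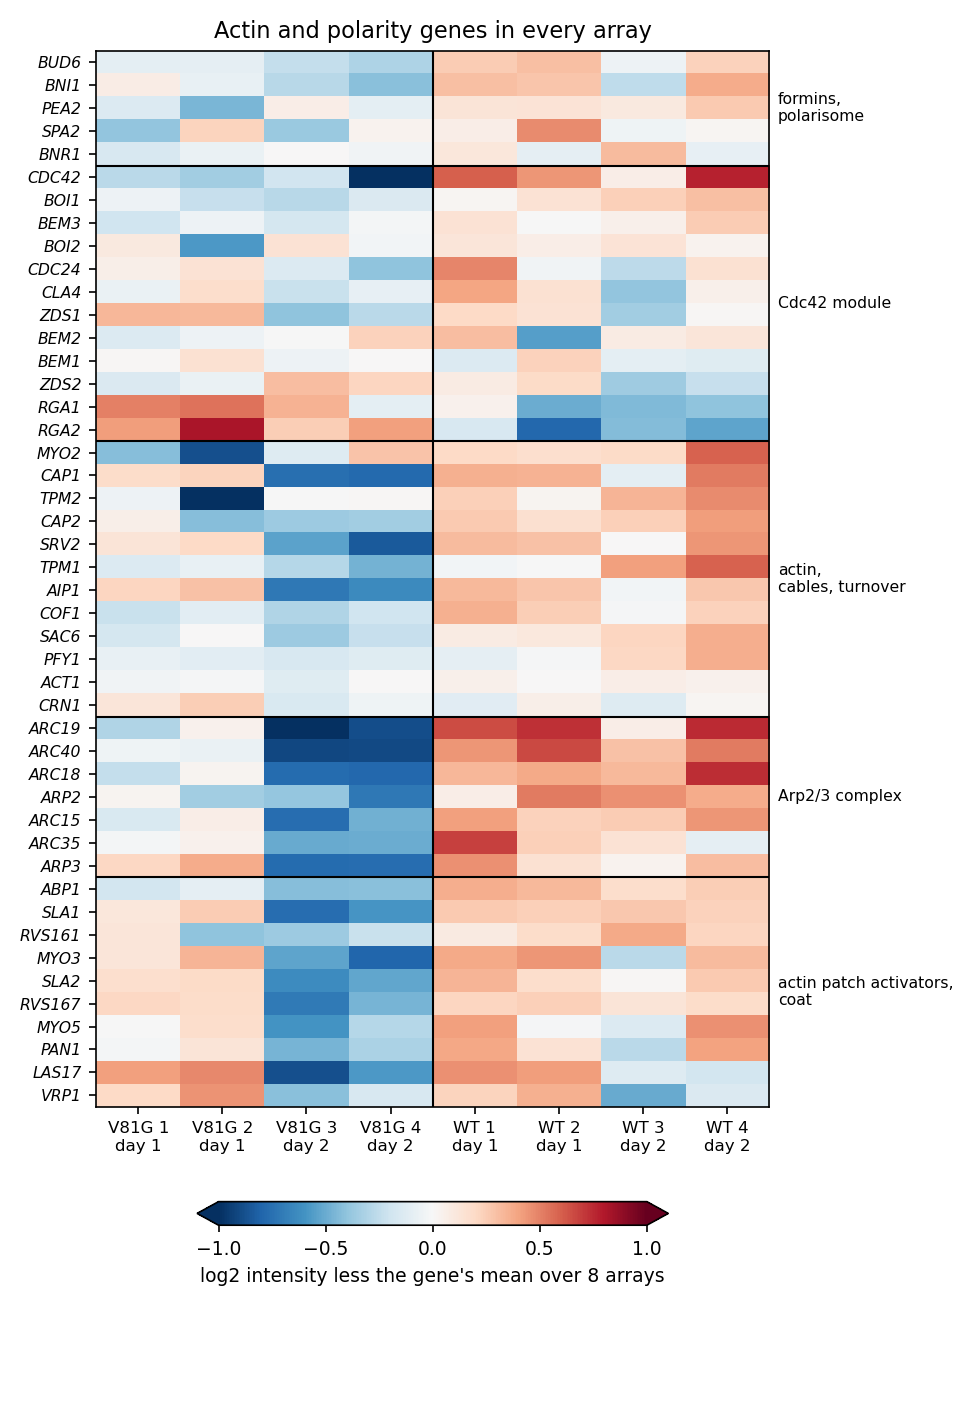
Log2 intensity of the 46 genes (rows, by role) in each array (columns, V81G 1 to 4 then WT 1 to 4, with the hybridization day), less the gene's own mean over 8 arrays. Colours run from blue (lower) to red (higher). The Arp2/3 rows and, apart from VRP1 and RVS161, the patch rows are darkest blue in V81G 3 and V81G 4, the V81G arrays of day 2.

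Within the arrays labelled V81G the module differed between hybridization days. The V81G arrays of day 1 ran on another fluidics station than those of day 2. Day and station can therefore not be told apart within that label. In 31 of the 46 genes both V81G arrays of day 2 lay below both of day 1, as in 39.0% of all genes, and this held for 7 of 7 Arp2/3 genes and 9 of 10 patch genes. By the mean of each day 38 members were lower on day 2 in the arrays labelled V81G and 30 in those labelled WT. Of all 5656 genes 3105 and 2652 were. The members' median shifts were -0.30 and -0.09. Among the 10 patch genes 10 and 9 were lower, and among the 7 Arp2/3 genes 7 and 4. Relative to each gene's mean over 8 arrays, the Arp2/3 median was -0.04, 0.04, -0.77 and -0.76 in V81G 1 to 4, against 0.44, 0.38, 0.25 and 0.44 in WT 1 to 4. The V81G arrays of day 1 thus stood between those of day 2 and the WT arrays. The patch median was 0.12, 0.19, -0.56 and -0.44 in V81G 1 to 4, against 0.35, 0.24, -0.06 and 0.24 in WT 1 to 4, so that on day 1 the groups nearly met.

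The median difference between groups was smaller on day 1 for the Arp2/3 and patch genes. The Arp2/3 median was -0.45 on day 1 and -0.97 on day 2, and the patch median was -0.09 and -0.61. The genes of actin, cables and filament turnover had medians of -0.14 on day 1 and -0.51 on day 2. The formins and polarisome, with -0.35 and -0.19, and the Cdc42 module, with -0.16 and -0.01, had the larger negative median on day 1. In a fit of day 1 alone, with 2 arrays per group, 2 members fell (ARC19 and CDC42), while 7.37% of all genes fell, and 0 rose, while 7.13% of all genes rose. At an unadjusted p under 0.05 limma gave 8 lower and 2 higher on that day, while 17.1% of all genes were lower and 15.8% higher. Day 2 alone gave 17 lower members, while 15.3% of all genes fell, and 2 higher ones, RGA2 and ZDS2, while 7.80% of all genes rose. Of the 17, 6 were Arp2/3 genes, 6 were genes of actin, cables and filament turnover and 5 were patch genes, while CDC42 and COF1 did not pass on that day alone.

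Whether a difference depended on the day was tested by an interaction term, which takes in the change of station in the arrays labelled V81G. None of the 46 genes passed (limma, 0 called, 13 at an unadjusted p under 0.05), while 1.86% of all genes did and 18.9% had such an unadjusted p. SLA1 had the lowest adjusted p of the module, 0.0837, with -0.07 on day 1 and -0.93 on day 2. ARP3, with -0.01 and -0.94, had an adjusted p of 0.114. All 11 genes that passed over both days had the same sign on both, which their choice by the joint fit of the same arrays made likely beforehand. What else differed between the days, and its part in these values, was not tested.

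**Figure D4:**
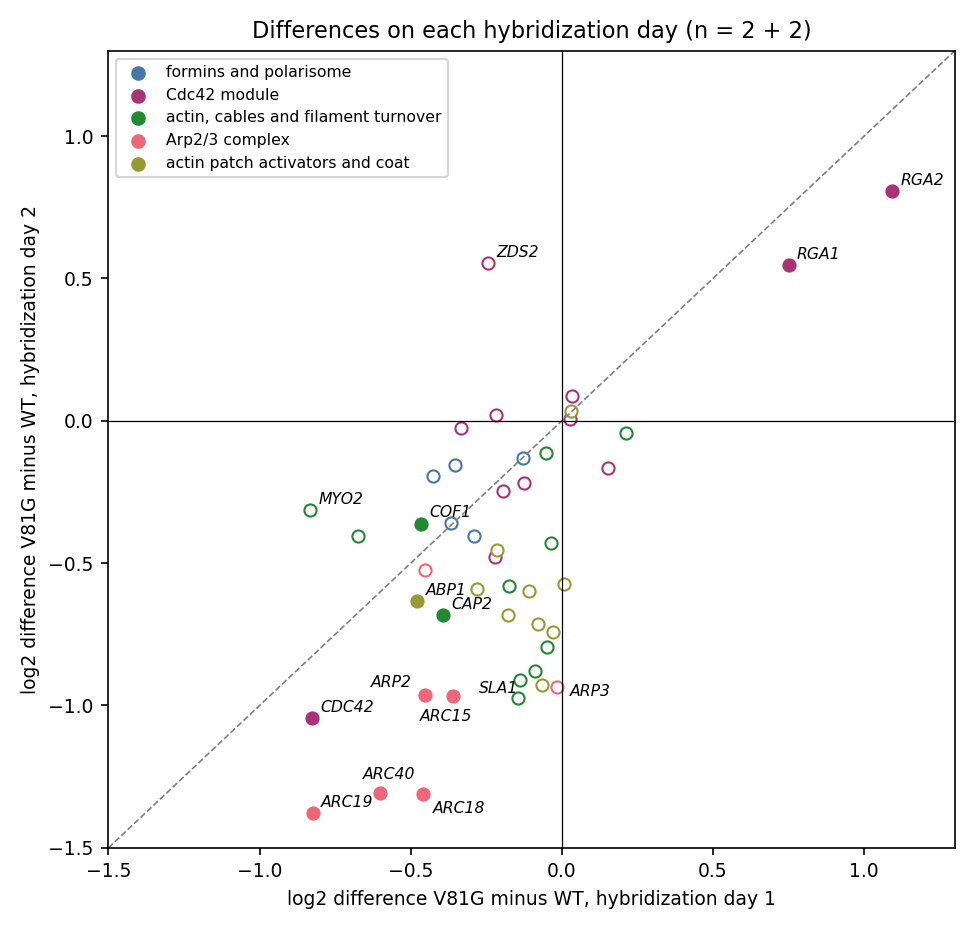
Log2 difference V81G minus WT on hybridization day 1 (horizontal axis) and day 2 (vertical axis), 2 arrays per group and day, for the 46 genes coloured by role. Filled points passed over both days together, and the dashed line marks equal differences. Most Arp2/3 and patch genes lie below the line, with larger falls on day 2, while RGA1 and RGA2 are positive on both days.

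Paralogs of the module were compared through their log2 ratio within each array, for 6 pairs chosen after the values were known. RGA1 relative to RGA2 changed by -0.30 between the groups, with ratios of 0.78 ± 0.29 in the arrays labelled V81G and 1.08 ± 0.13 in those labelled WT (SD, n = 4 each, exact permutation p = 0.114, two-sided, 0.686 after Benjamini-Hochberg adjustment over the 6 pairs). The other pairs (BNI1 and BNR1, BOI1 and BOI2, ZDS1 and ZDS2, TPM1 and TPM2, MYO3 and MYO5) changed by -0.22 to 0.05, with exact permutation p-values of 0.400 or more. With 4 arrays per group the smallest p this test can give is 0.0286. The size of such a ratio also depends on the probes, so only its change is compared. A difference between paralogs was thus not detected at this number of arrays.

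Genes of neighbouring pathways give the setting of these values. Of 107 such genes in 7 lists 4 rose, while 9.21% of all genes rose, and 19 fell, while 12.3% of all genes fell. With the replicate number blocked 7 rose, against 9.95% of all genes, and 18 fell, against 13.7%. The lists with the most falls were those of tubulin and microtubules, 6 of 13 with a median of -0.40, and of actin folding, 5 of 15 with a median of -0.41. TUB2, beta-tubulin, fell by 0.93 ± 0.13 (adjusted p = 0.00103) and TUB1, the main alpha-tubulin, fell by 0.88 ± 0.19 (adjusted p = 0.0111). CCT3 and TCP1, subunits of the CCT chaperonin that folds actin and tubulin, fell by 1.08 ± 0.18 (adjusted p = 0.00310) and 0.69 ± 0.13 (adjusted p = 0.00631). All 15 actin folding genes had negative differences, as did 58.8% of all genes. None of them rose at an unadjusted p under 0.05, against 14.4% of all genes.

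Around Cdc42 itself, RDI1, an inhibitor that extracts Cdc42 from membranes, fell by 0.60 ± 0.12 (adjusted p = 0.00818). MSB4, a GTPase-activating protein of the vesicle GTPase Sec4, rose by 0.81 ± 0.14 (adjusted p = 0.00441). The other 9 Cdc42 effectors and relatives did not pass, while 21.5% of all genes passed in either direction. SEC4 fell by 1.12 ± 0.16 (adjusted p = 0.00125) and the exocyst subunit gene SEC6 fell by 0.62 ± 0.13 (adjusted p = 0.0104). They were the only 2 of 15 exocyst and vesicle genes to pass, against 21.5% of all genes. In bud site selection AXL1, of the haploid axial pattern, rose by 0.66 ± 0.11 (adjusted p = 0.00368). RAX1, of the bipolar pattern, fell by 0.68 ± 0.13 (adjusted p = 0.00589). Of the 11 genes of that list 9 did not pass, while 21.5% of all genes passed.

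Of 14 septin and cytokinesis genes 4 fell, while 12.3% of all genes fell. Among the 4 were HOF1, of the contractile ring, which fell by 0.85 ± 0.16 (adjusted p = 0.00517), and the septin gene CDC11, which fell by 0.60 ± 0.17 (adjusted p = 0.0397). Of 28 other patch and endocytic coat genes 2 rose and none fell in limma, while 9.21% of all genes rose and 12.3% fell. Their median was -0.12, and 2 were lower at an unadjusted p under 0.05, against 21.6% of all genes. The risen genes were BZZ1 (0.93 ± 0.16, adjusted p = 0.00312) and YAP1801 (0.91 ± 0.21, adjusted p = 0.0160), and both lie on chromosome VIII. GIC1, a Cdc42 effector gene named after its values were seen because an extra dose of it, like one of ZDS1, is known to relieve defects of an eIF5A mutant, differed by -0.13 ± 0.20 and did not pass. GIC1 also lies on chromosome VIII, where 107 of 259 genes rose.

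**Figure D5:**
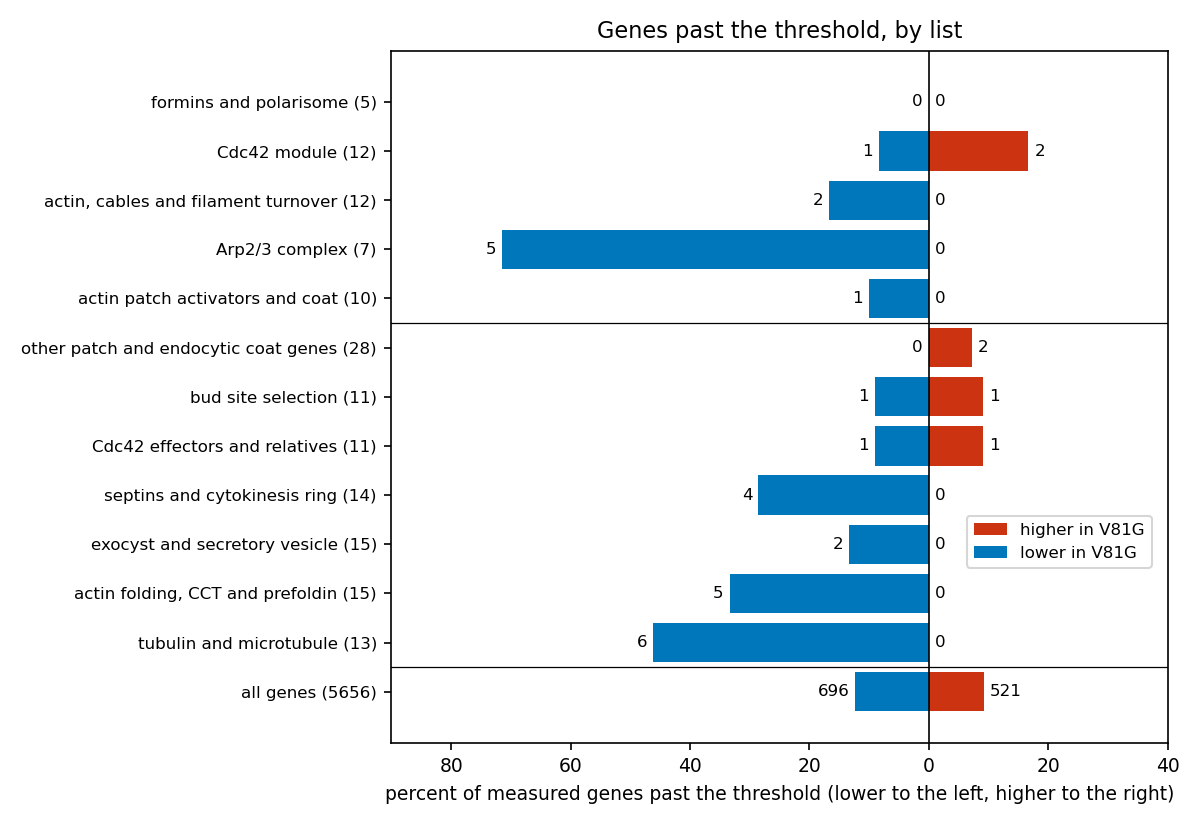
Percent of measured genes past an adjusted p under 0.05 (horizontal axis), higher in the arrays labelled V81G to the right (red) and lower to the left (blue), by list (rows, number of genes in brackets). Numbers beside the bars are gene counts. The Arp2/3 complex has 5 of 7 lower, and the bottom row gives all genes, with 696 lower and 521 higher.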

How the data were processed

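The authors deposited 1 intensity per probe set and array, on a linear scale. RMA is named, without a version, per the submitters' processing notes, and the sources used here state no later scaling or centring. Values were taken to log2. The 60 control probe sets were left out. Symbols of the platform annotation were updated through the RefSeq table of assembly R64, and 6504 probe sets had 1 symbol, 328 had several and 2443 were not listed. The probe set with the highest mean over 8 arrays stood for a gene. The test was limma 3.58.1 under R 4.3.3, two-sided, with a single term for the group and Benjamini-Hochberg adjustment over all 9275 probe sets, and the fit was tested on simulated data. Differences are V81G minus WT. Adjusted p-values are limma's. Ratios of paralogs were tested by exact permutation (SciPy 1.17.1).

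The members, their roles and the lists of neighbouring pathways were chosen with earlier results of these data known, and 1 further list is not reported here. All members were to be named, with every array's value for called ones and for ACT1, BNI1 and CDC42, and up to 2 rises and 2 falls per neighbouring list. Values of ARC35, ARP3, SLA1 and MYO2 in each array were added after they were seen.

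Same-numbered arrays deviated together from their group means (r = 0.23 to 0.44 in the 4 pairs). Differently numbered arrays of the same day did so too (0.22 to 0.34), and arrays of different days had r of -0.41 to -0.14. These values follow the day and do not establish a pairing by number. The replicate number and the day were each also fitted as a block. The number of arrays limits the precision. Arrays of a group are biological replicates per the labels, and p-values measure the spread between them. Protein and promoter sequences were not used here. Alternatives covered dim probe sets, scaling, variance prior, blocks, single days and each array left out.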

Additional observations from a re-analysis of the deposited data

Results flagged for a closer look

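In each group of 4 arrays, a member was marked when its highest or lowest array stood apart by a gap whose share of the group's whole range passed Dixon's 95% critical value. Of 92 groups 9 were marked, and chance marks about 1 in 20. Among the arrays labelled V81G the lowest was V81G 2 in TPM2, at 9.10 against 10.09 to 10.15 in the others (gap over range 0.941), and the highest was V81G 1 in CAP2, at 11.70 against 11.22 to 11.29 (0.847). Among the arrays labelled WT, WT 3 was low in BNI1 (11.31 against 11.84 to 11.94, 0.851), in AIP1 (12.12 against 12.41 to 12.47, 0.832) and in ARC19 (10.75 against 11.33 to 11.42, 0.862). WT 4 was high in MYO2 (12.60 against 12.17 to 12.20, 0.927) and in ARC18 (11.21 against 10.80 to 10.85, 0.874). WT 1 was high in RGA1 (9.82 against 9.29 to 9.38, 0.831), and WT 2 was high in BEM1 (9.15 against 8.78 to 8.81, 0.902).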

How the results depend on the processing

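Over 20 alternatives the 11 called members never changed sign, though these fits reuse the arrays by which the 11 were called. The median difference of all members stayed within -0.47 and -0.19. Over all probe sets the count of calls stayed within 1.5 times the reported one. Members higher numbered 1 or 0 above the 25th or 50th percentile of brightness, since the dim RGA2 or both RGA genes are left out by construction, 0 on day 1 alone, and 1 to 2 with an array left out, 1 without V81G 1, 2 or 3 or WT 2, 3 or 4. Members lower numbered 2 on day 1 alone, 17 on day 2 alone and 3 to 9 with an array left out. In the neighbouring lists 7 rose with the replicate number blocked (9.95% of all genes) and 9 with the day blocked (12.5% of all genes). On day 1 alone 11 fell (7.37% of all genes). In a fit of the brighter 50% of probe sets alone, 3 members (SLA1, TPM1 and ZDS2) passed the interaction test of group and day. Over all probe sets none of them did, with limma adjusted p-values of 0.0837, 0.116 and 0.101. The share of all genes that passed in the brighter fit is not given here. Other causes were not tested. Uncalled members near 0 turned sign. ZDS1 was at 0.0167 after quantile normalization, 0.0455 after centring outside chromosome VIII, 0.15 on day 1 and -0.12 to 0.13 with an array left out. BEM2 was at -0.0223 and VRP1 at -0.0045 after median centring, and with an array left out at -0.16 to 0.12 and -0.13 to 0.18. ZDS2 was at -0.24 and LAS17 at 0.0078 on day 1, CLA4 was at 0.0190 and CRN1 at -0.0421 on day 2, and CLA4 was at -0.25 to 0.0149 with an array left out. The replicate block changed no other call by a member's brightest probe set than ARC35 and MYO2.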
